A study of Mus musculus with 7 samples.

Results

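The 10 genes described here are transcripts usually taken as marks of neurons: Elavl4, Dcx, Gap43, Stmn2, Stmn3, Nsg2, Gpm6a, Tubb3, Snap25 and Cntn1. They were followed by symbol through 7 single-cell libraries of C57BL/6 mouse cells, as 10 of the 17784 genes listed in all. The study transduced embryonic fibroblasts and cerebral pericytes with viruses that carry oligodendrocyte lineage factors, to convert them into induced oligodendrocyte progenitor cells. MEF-3F and PC-3F are fibroblasts and pericytes given Olig2, Sox10 and Nkx6.2, and MEF-2F and PC-2F are the same donor cells given Olig2 and Sox10. MEF and PC are the untreated donors, from embryo and brain, and pOPC are untreated primary oligodendrocyte progenitor cells from brain. pOPC and converted cells were grown in OPC medium, and MEF and PC each in their own medium, so medium and factors cannot be told apart. Each population is 1 library, so no test between populations exists, and every ratio compares libraries rather than conditions.

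Oligodendrocyte progenitors arise from neural stem cells that also make neurons, and they receive synaptic input and carry glutamate receptors. Transcripts first described in neurons have been found in them. The members fall into 3 roles. Dcx, Stmn2, Stmn3 and Tubb3 act on or form microtubules, and Gap43 sits at the membrane of growing axons. Elavl4 is an RNA-binding protein that stabilises transcripts during neuronal differentiation. Nsg2, Snap25, Gpm6a and Cntn1 work at membranes: Nsg2 in endosomal sorting, Snap25 in vesicle fusion, Gpm6a in the outgrowth of cell processes and Cntn1 as an adhesion molecule that cells of the oligodendrocyte lineage also make.

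The label of neuronal genes in progenitors held for 9 of the 10 members, since Stmn2 had 0 UMIs in pOPC. Depth differed between libraries: MEF-3F kept 161 cells with a median of 1866 UMIs, MEF-2F 82 with 2411, PC-3F 147 with 4124, PC-2F 179 with 6259, MEF 131 with 4662, PC 290 with 3775 and pOPC 134 with 3960.5. Levels are UMIs scaled to 1000000 UMIs of the library (CPM), with exact 95% Poisson intervals that cover counting error only. A count of 3 UMIs, used as the floor for a library at 0, is from 2.32 CPM in PC to 13.0 CPM in MEF-2F. The labelled cell type was checked first: 17 of 19 OPC markers had UMIs in pOPC, summing to 11935 CPM, with Lhfpl3 and Matn4 at 0. Converted libraries had UMIs of 14 to 18 of these markers, so that number does not set pOPC apart. Their sums were lower, at 5154 CPM in MEF-3F, 2321 in MEF-2F, 4059 in PC-3F and 3643 in PC-2F. No barcode sequence was shared between any pair of libraries.

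Upstream sequence was matched for 7 of the 10 members, and 4 windows are shown because they stand for the 3 patterns found below. Stmn3 and Nsg2 were seen in pOPC and at most in a few donor cells, Cntn1 also in converted cells, and Tubb3 in every library. Each is the 250 bases before a RefSeq transcript start on GRCm38.p6, 5′ to 3′ on the gene's strand, from the first window listed for the gene. Capitals mark any of 4 motifs, searched on both strands: ACAAAG, the core bound by SOX factors; CAGCTG, an E-box; and TCAGCACC and GGACAG, the left and right arms of RE1, the element bound by the repressor of neuronal genes REST.
Stmn3, chr2:181314501-181314750, minus strand: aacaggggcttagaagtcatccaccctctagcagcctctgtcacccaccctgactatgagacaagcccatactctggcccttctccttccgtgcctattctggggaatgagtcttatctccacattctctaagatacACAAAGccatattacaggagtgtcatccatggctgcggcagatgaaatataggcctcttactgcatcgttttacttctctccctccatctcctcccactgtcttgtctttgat
Nsg2, chr11:32000169-32000418, plus strand: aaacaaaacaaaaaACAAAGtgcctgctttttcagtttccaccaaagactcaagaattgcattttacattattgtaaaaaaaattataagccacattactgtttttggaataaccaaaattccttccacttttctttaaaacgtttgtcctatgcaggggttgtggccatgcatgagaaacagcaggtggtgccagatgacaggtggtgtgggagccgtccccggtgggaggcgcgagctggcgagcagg
Cntn1, chr15:92050915-92051164, plus strand: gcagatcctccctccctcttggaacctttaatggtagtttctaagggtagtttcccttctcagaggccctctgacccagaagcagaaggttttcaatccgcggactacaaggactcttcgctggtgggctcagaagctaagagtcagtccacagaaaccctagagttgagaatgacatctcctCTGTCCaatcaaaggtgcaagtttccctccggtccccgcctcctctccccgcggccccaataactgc
Tubb3, chr8:123411303-123411552, plus strand: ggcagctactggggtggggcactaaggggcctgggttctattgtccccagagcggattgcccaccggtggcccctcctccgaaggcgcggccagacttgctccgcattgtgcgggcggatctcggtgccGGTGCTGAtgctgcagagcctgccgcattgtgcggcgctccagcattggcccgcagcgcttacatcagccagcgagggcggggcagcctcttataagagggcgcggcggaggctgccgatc
ACAAAG was in the windows of Nsg2 and Stmn3, 2 of 7, and in 16.5% of 27025 windows of the same length. GGACAG was in the window of Cntn1 and in 18.7% of all windows, and TCAGCACC in that of Tubb3 and in 1.27% of all. CAGCTG was in none of the 7 windows and in 12.8% of all, and the windows of Elavl4, Dcx and Gpm6a held none of the 4 motifs. A match is a description of the letters in a window, not a binding site. GC content was 68.0% in the Tubb3 window, 53.6% in Cntn1, 48.8% in Stmn3 and 43.6% in Nsg2, against a median of 52.0% over all windows.

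A first set of members was counted in pOPC and in no converted library. Elavl4 (chr4:110203722-110351909) had 0 UMIs in MEF-3F, MEF-2F, PC-3F, PC-2F, MEF and PC, and 67 UMIs or 106 CPM in pOPC, with an interval of 82.0 to 134. Dcx (chrX:143855842-143933311) was likewise at 0 in those 6 libraries and had 57 UMIs or 90.1 CPM in pOPC. Stmn3 (chr2:181306459-181314500) was at 0 in the 6 and had 116 UMIs or 183 CPM in pOPC. pOPC stood alone for these 3 genes, and the upper limits in the other libraries, from 2.85 CPM in PC to 16.0 CPM in MEF-2F, lay below its intervals. Snap25 (chr2:136713453-136782428) had the same pattern on few molecules, with 0 UMIs in the 6 libraries and 11 UMIs in 10 cells of pOPC. At 17.4 CPM it did not reach the minimum of 20 CPM set for a call.

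Nsg2 (chr11:32000463-32059202) was at 0 in MEF-3F, MEF-2F, PC-3F, PC-2F and PC, had 5 UMIs in 2 cells of MEF, and had 175 UMIs or 277 CPM in pOPC. With the library at 0 set at 3 UMIs, the bound for Nsg2 relative to pOPC was at least 42.2-fold lower for MEF-3F, 21.2-fold for MEF-2F, 58.6-fold for PC-3F and 111-fold for PC-2F. For Stmn3 the bounds were 28.0-fold for MEF-3F, 14.1-fold for MEF-2F, 38.8-fold for PC-3F and 73.3-fold for PC-2F. For Elavl4 they were 16.2-fold, 8.12-fold, 22.4-fold and 42.3-fold in the same order of libraries, and for Dcx 13.8-fold, 6.91-fold, 19.1-fold and 36.0-fold. The bounds differ between libraries through depth alone, since every converted library was at 0 for these 4 genes. In the second barcode block of MEF-2F, of 17 cells, Elavl4 and Dcx no longer passed the call rule.

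**Figure D1:**
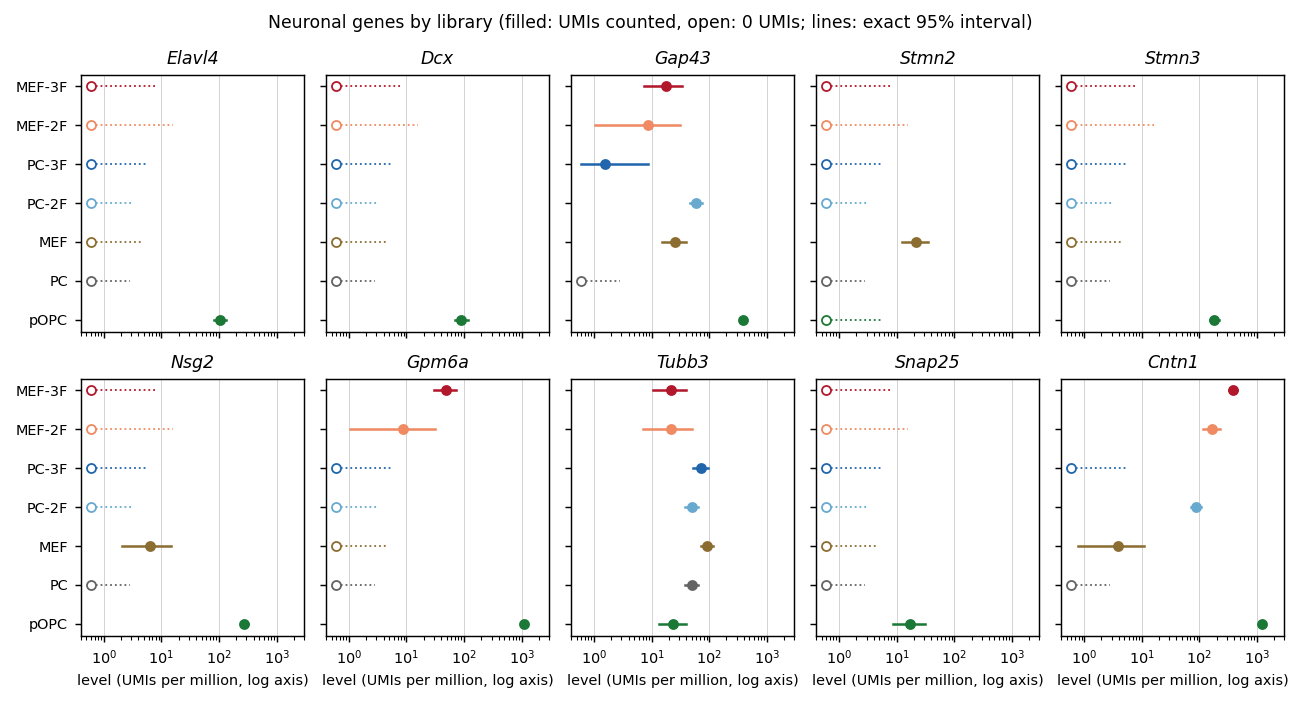
Level of each of the 10 genes in each library in CPM on a log axis, with MEF-3F at the top and pOPC at the bottom. Filled points are libraries with UMIs and their lines are exact 95% Poisson intervals. Open points at the left edge are libraries with 0 UMIs, with a dotted line to the upper limit. Elavl4, Dcx, Stmn3 and Snap25 have a filled point in pOPC only, Stmn2 in MEF only, and Tubb3 in all 7.

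A second set kept a part of its pOPC level in some converted libraries. Cntn1 (chr15:92051165-92341967) had 176 UMIs or 384 CPM in MEF-3F, 38 UMIs or 165 CPM in MEF-2F, 0 UMIs in PC-3F, 107 UMIs or 89.2 CPM in PC-2F, 3 UMIs in MEF, 0 in PC and 788 UMIs or 1245 CPM in pOPC. Its order was pOPC, MEF-3F, MEF-2F and PC-2F, and the intervals of these 4 libraries did not overlap, whereas those of MEF, PC-3F and PC overlapped. Cntn1 was 3.24-fold lower in MEF-3F than in pOPC (interval 2.75 to 3.84), 7.54-fold lower in MEF-2F (5.44 to 10.7), 14.0-fold lower in PC-2F (11.4 to 17.2), and in PC-3F lower by 264-fold or more. When each cell with the gene counted once, as a share of all gene detections, the log2 ratio of MEF-3F over pOPC was -0.27 and the call was lost.

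Against the donors, Cntn1 rose: the ratio was 101 in MEF-3F over MEF (34 to 495) and 43.5 in MEF-2F over MEF (13.8 to 220), on 3 UMIs in MEF. PC-2F exceeded PC by 38.4-fold or more, while PC-3F and PC were both at 0. Nkx6.2 as the added factor went with different levels in the 2 lineages. Cntn1 was 2.33 times as high in MEF-3F as in MEF-2F (1.63 to 3.4), while PC-3F lay at least 18.9-fold below PC-2F. The difference between the lineages was not tested, since each rests on a pair of libraries. Over the 2 barcode blocks joined in each fibroblast-derived library, Cntn1 had 354 and 391 CPM in MEF-3F and 155 and 204 CPM in MEF-2F. With the second blocks alone, which leave 17 cells of MEF-2F, the log2 ratio was 0.88 and the call was lost.

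Gpm6a (chr8:54954843-55060871) had 22 UMIs or 48.0 CPM in MEF-3F, 2 UMIs in MEF-2F, 0 in PC-3F, PC-2F, MEF and PC, and 707 UMIs or 1117 CPM in pOPC. It was seen in fibroblast-derived and not in pericyte-derived cells. It was 23.3-fold lower in MEF-3F than in pOPC (15.2 to 37.4), and above MEF by 12.6-fold or more, a call lost in the first barcode block alone. The ratio of MEF-3F over MEF-2F was 5.52 (1.36 to 48.5) on 2 UMIs in MEF-2F, and the call was lost in either barcode block and when cells were counted in place of UMIs. In MEF-3F, 13 of its 22 UMIs lay in 5 cells.

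Gap43 (chr16:42248442-42340651) had 8 UMIs or 17.5 CPM in MEF-3F, 2 UMIs in MEF-2F, 1 in PC-3F, 71 UMIs or 59.2 CPM in PC-2F, 20 UMIs or 25.3 CPM in MEF, 0 in PC and 247 UMIs or 390.3 CPM in pOPC. Among converted libraries PC-2F was the highest, and MEF held more than its converted cells without passing the call rule. Gap43 was 22.4-fold lower in MEF-3F than in pOPC (11.2 to 52.4), 44.9-fold lower in MEF-2F on 2 UMIs (12.3 to 373), 248-fold lower in PC-3F on 1 UMI (44.1 to 9834) and 6.59-fold lower in PC-2F (5.05 to 8.71). It was higher in PC-2F than in PC by 25.5-fold or more, and 37.6-fold lower in PC-3F than in PC-2F (6.54 to 1506). The ratio of MEF-3F over MEF was 0.690 (0.263 to 1.63) and that of MEF-2F over MEF 0.343 (0.0389 to 1.41).

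The remaining members did not follow pOPC. Tubb3 (chr8:123411424-123422015), a neuronal beta-tubulin, had 10 UMIs or 21.8 CPM in MEF-3F, 5 UMIs or 21.7 CPM in MEF-2F, 46 UMIs or 72.4 CPM in PC-3F, 60 UMIs or 50.02 CPM in PC-2F, 72 UMIs or 91.1 CPM in MEF, 65 UMIs or 50.3 CPM in PC and 15 UMIs or 23.7 CPM in pOPC. It was highest in the donor fibroblasts and its pOPC interval of 13.3 to 39.1 overlapped those of MEF-3F and MEF-2F and, at its upper end, those of PC-2F and PC. It fell in converted fibroblasts relative to MEF, 4.18-fold in MEF-3F (2.15 to 9.08) and 4.19-fold in MEF-2F (1.72 to 13.3). The calls were lost in the first barcode block of MEF-3F (log2 ratio -0.88) and the second of MEF-2F (-0.85). The ratio to PC was 1.44 in PC-3F (0.965 to 2.13) and 0.995 in PC-2F (0.688 to 1.44). Over pOPC it was 3.05 times as high in PC-3F (1.67 to 5.89) and 2.11 times as high in PC-2F (1.18 to 4.0), and both calls were lost when cells were counted in place of UMIs. Tubulin genes share much of their coding sequence, so Tubb3 counts are uncertain where reads fell in it.

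Stmn2 (chr3:8509360-8561606) was at 0 UMIs in MEF-3F, MEF-2F, PC-3F, PC-2F, PC and pOPC, and had 17 UMIs in 3 cells of MEF. Those cells held 12, 4 and 1 UMIs of it, none of Nsg2 and none of Tubb3. They held 43, 18 and 1 UMIs of the collagen gene Col1a1, and 42, 30 and 4 of the collagen gene Col1a2. The 2 MEF cells with Nsg2 were other cells, with 3 and 2 UMIs of it, 12 and 5 UMIs of Col1a1 and 0 of Col1a2. Both also held Tubb2a, Dclk1, Gpm6b and Pcsk1n, each of which is in a neuronal list read below. The summed level of 88 further neuronal genes was from 1799 to 5095 CPM in these 5 cells, against a median of 1888 CPM and a range of 0 to 6459 CPM in the other 126 MEF cells. None of the 5 held a UMI of the neuroendocrine genes Chga and Chgb, or of Elavl3, Isl1 or Sox10. The MEF library also held 161 UMIs of 10 of 10 microglia markers, and their part in these values was not tested.

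By the call rule (10 UMIs and 20 CPM in either library, a 2-fold ratio and an interval that excludes 1), 8 members were measured in each converted library against pOPC. Elavl4, Dcx, Gap43, Stmn3, Nsg2, Gpm6a and Cntn1 were lower in all 4. These counts of 7 stand beside backgrounds of 19.5% of all measured genes called lower in MEF-3F, 23.9% in MEF-2F, 21.8% in PC-3F and 21.1% in PC-2F. Tubb3 was the member called higher, in PC-3F and PC-2F, against 19% and 19.9% of all genes, and 0 members were called higher in MEF-3F and MEF-2F, against 19.9% and 18.3%. The members were chosen from levels in these libraries, and the 4 comparisons share the pOPC library, so the counts describe the choice and support nothing further. The median log2 ratio of the measured members, with libraries at 0 set at 3 UMIs, was -4.25 in MEF-3F, -3.42 in MEF-2F, -5.58 in PC-3F and -5.29 in PC-2F, against -0.08, -0.37, -0.23 and -0.19 over all genes in that order.

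The donors differed from pOPC in the same members. In MEF, 7 of 9 measured members were lower, with 32.3% of all genes lower, and Stmn2 and Tubb3 were higher, with 19.5% higher; the Stmn2 call, on 3 cells, was lost with detections and with equal weight per cell. In PC, 7 of 8 were lower, with 27.7% of all genes lower, and Tubb3 was higher, with 20.6% higher, a call lost with detections and in the first barcode block. Against their donors the converted cells showed few measured members: 2 of 5 higher and 2 lower in MEF-3F (23.6% and 12.7% of all genes), 1 of 4 higher and 1 lower in MEF-2F (19% and 13.8%), 0 of 1 in PC-3F (18.8% and 15%) and 2 of 3 higher with 0 lower in PC-2F (17.7% and 12.8%). Higher members were Gpm6a and Cntn1 in MEF-3F, Cntn1 in MEF-2F, and Gap43 and Cntn1 in PC-2F. Stmn2 was lower in MEF-3F than in MEF by 3.29-fold or more, a call lost when cells were weighted equally, in the first barcode block, and when cells were counted in place of UMIs. Between 3 and 2 factors, 2 of 3 measured members were higher and 0 lower in MEF-3F (8.96% and 7.01% of all genes), and 0 higher and 2 of 3 lower in PC-3F (5.08% and 5.98%).

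Per cell, the members differed in how many pOPC cells held them. Without thinning, a UMI of Elavl4 was found in 43 of 134 pOPC cells (32.1%, exact 95% interval 24.3 to 40.7), of Dcx in 36 (26.9%), of Stmn3 in 60 (44.8%), of Nsg2 in 74 (55.2%), of Gap43 in 81 (60.4%), of Gpm6a in 125 (93.3%) and of Cntn1 in 120 (89.6%). Tubb3 was found in 12, Snap25 in 10 and Stmn2 in 0. Among these 7 genes, the 5 cells with most UMIs of a gene held from 15.3% of its UMIs for Gpm6a to 29.8% for Dcx. Shares depend on depth, so each cell was also thinned to 1000 UMIs, which leaves 116 pOPC cells. Thinned shares in pOPC were 13.8% for Elavl4, 9.48% for Dcx, 14.7% for Stmn3, 20.7% for Nsg2, 30.2% for Gap43, 68.1% for Gpm6a and 72.4% for Cntn1. MEF and PC, the cells expected to lack these transcripts, gave 0 of 129 and 0 of 267 thinned cells for Elavl4, Dcx, Stmn3 and Gpm6a, which allows up to 2.82% and 1.37%.

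In converted cells Cntn1 reached a sizeable share. Thinned, it was found in 45 of 122 cells of MEF-3F (36.9%, 28.3 to 46.1), 10 of 75 of MEF-2F (13.3%, 6.58 to 23.2), 0 of 146 of PC-3F (up to 2.49%), 11 of 178 of PC-2F (6.18%, 3.12 to 10.8), 1 of 129 of MEF, 0 of 267 of PC and 84 of 116 of pOPC (72.4%, 63.3 to 80.3). Its UMIs lay in 81 cells of MEF-3F and 16 cells of MEF-2F before thinning. Tubb3 was thinly spread everywhere, with thinned shares from 0.820% in MEF-3F to 9.30% in MEF. In PC-3F, 65.2% of its 46 UMIs lay in 5 of 147 cells, with 12 in the highest cell.

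Counted together, pOPC cells thinned to 1000 UMIs held a median of 2 of the 10 genes and up to 6. Of the 116 cells, 2 held none, 21 held 1, 42 held 2, 38 held 3 and 13 held 4 or more. No member was found in 58.2% of MEF-3F, 82.7% of MEF-2F, 94.5% of PC-3F, 86.5% of PC-2F, 86.0% of MEF and 94.4% of PC cells, and no thinned cell outside pOPC held more than 2. Of Elavl4, Dcx, Stmn3 and Nsg2 alone, 59 thinned pOPC cells held none, 47 held 1, 9 held 2, 1 held 3 and 0 held all 4. Unthinned, 14 of 134 pOPC cells held all 4, and 43 cells held both Stmn3 and Nsg2.

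**Figure D2:**
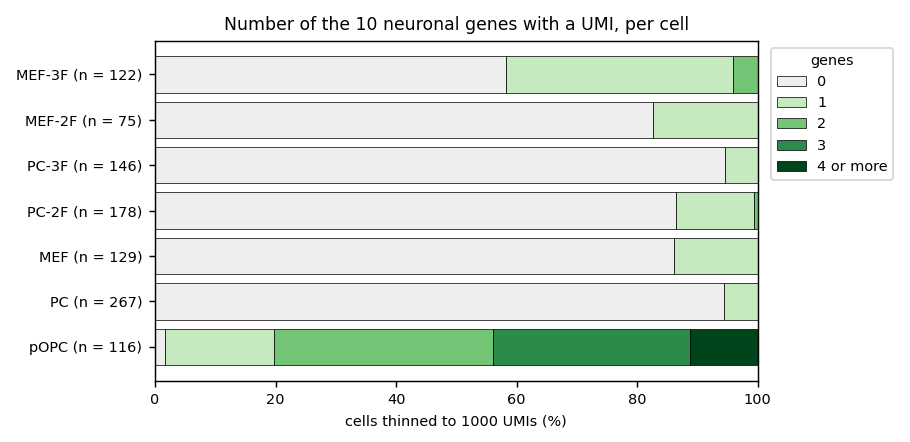
Share of cells, thinned to 1000 UMIs, by the number of the 10 genes with a UMI, as stacked bars from MEF-3F at the top to pOPC at the bottom, with the number of cells at each name. The pOPC bar has 11.2% of cells with 4 or more genes and 1.72% with 0, and the other bars are mostly cells with 0 genes.

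The pOPC cells with neuronal transcripts were cells with Olig1, a transcription factor of the oligodendrocyte lineage. Unthinned, 130 of 134 pOPC cells held Olig1, at a median of 3981 UMIs, and the 4 without it had a median of 661.5 UMIs. Every cell with Elavl4 (43), Dcx (36), Stmn3 (60), Nsg2 (74), Gap43 (81), Tubb3 (12) or Snap25 (10) also held Olig1, as did 123 of 125 cells with Gpm6a and 117 of 120 with Cntn1. These shares have little room to differ, because almost all pOPC cells held Olig1. After thinning, 107 cells held Olig1 and 9 did not, by the UMIs left in the draw. The 9 cells had a median of 4123 UMIs before thinning. At least 1 of Elavl4, Dcx, Stmn3 and Nsg2 was found in 52 of 107 cells with Olig1 (48.6%, 38.8 to 58.5) and 5 of 9 without it (55.6%, 21.2 to 86.3). All 5 held Olig1 before thinning, so this split does not show these genes in cells that lack Olig1. Cntn1 was in 72.9% of cells with Olig1 and 66.7% of those without, and Gpm6a in 69.2% and 55.6%. The intervals overlapped for each of the 9 members seen in pOPC, and 9 cells leave any difference poorly bounded.

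**Figure D3:**
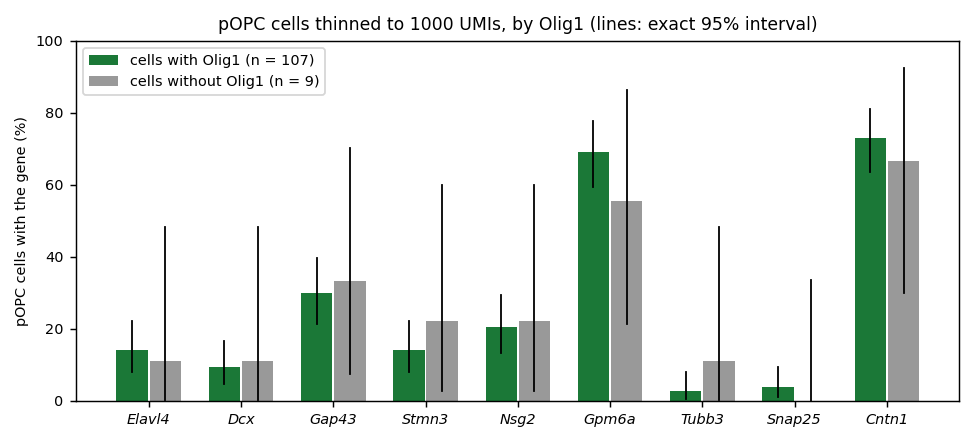
Share of pOPC cells, thinned to 1000 UMIs, with each of 9 genes, for 107 cells with Olig1 (green, left) and 9 cells without it (grey, right). Olig1 was read after thinning, so cells without it include cells that lost their Olig1 UMIs in the draw. Bars are shares and lines are exact 95% intervals. The intervals of each pair overlap, and those of the 9 cells are wide.

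OPC genes were read in pOPC cells by how many of the 10 members they held. Thinned pOPC cells were split at 0 or 1 members (23 cells, median 4315 UMIs before thinning), 2 or 3 (80 cells, 4303.5 UMIs) and 4 or more (13 cells, 6404 UMIs). In that order Olig1 was at 2641, 2785 and 2817 CPM, Olig2 at 1691, 1637 and 1755 CPM, and Sox10 at 603, 579 and 621 CPM. Pdgfra, the growth factor receptor of OPCs, was at 1404, 1342 and 1576 CPM, and Cspg4, which encodes NG2, at 425, 346 and 406 CPM. All these intervals overlapped between the 3 sets. The 19 OPC markers summed to 11374 CPM with 0 or 1 members, with an interval of 10726 to 12051. Their sum was 11789.8 CPM with 2 or 3 members (11469 to 12118) and 13287 CPM with 4 or more (12517.5 to 14091). The interval of the 13 cells with 4 or more lay above both others in this thinned split only: unthinned, the cells with 4 or more were at 12030.5 CPM (11740.7 to 12325.7), inside the interval of those with 0 or 1 (10036 to 15341). The unthinned sets were 85 cells with 4 or more, at a median of 5341 UMIs, and 10 cells with 0 or 1, at 738.5 UMIs. The unthinned split therefore also sorts cells by depth and is not a like-for-like check. Thinned and split at 3 members, the sums were 12214 CPM with 3 or more (11829 to 12610) and 11633 CPM with 2 or fewer (11255.5 to 12020), with intervals that overlapped. Fabp7, a marker on the OPC list that radial glia also make, was at 2562, 2638 and 3402 CPM in the 3 thinned sets, the last with an interval of 3019 to 3821 that lay above the others. In the unthinned sets, which differ in depth, it lay the other way. It was at 6240 CPM with 0 or 1 members, on 45 UMIs in 10 cells (4552 to 8350), and 2744 CPM with 4 or more (2607 to 2887). Thinned and split at 3 members, it was at 2814 CPM with 3 or more and 2643 CPM with 2 or fewer, with intervals that overlapped. In the 3 thinned sets the radial glia list summed to 7359, 7227 and 7592 CPM and the cycling list to 6973, 6802 and 7067 CPM, with intervals that overlapped. Of 8 other neuronal genes read in these sets, Gad2, Slc17a6, Syp and Tbr1 had 0 UMIs in all 3. In the order of 0 or 1, 2 or 3, and 4 or more, Syt1 had 1, 5 and 2 UMIs, Rbfox3 1, 2 and 0, Gad1 0, 2 and 0, and Neurod1 0, 3 and 0. No doublet caller was run, and the higher median depth of the 13 cells is a value that moves with the split, whose part in it was not tested.

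**Figure D4:**
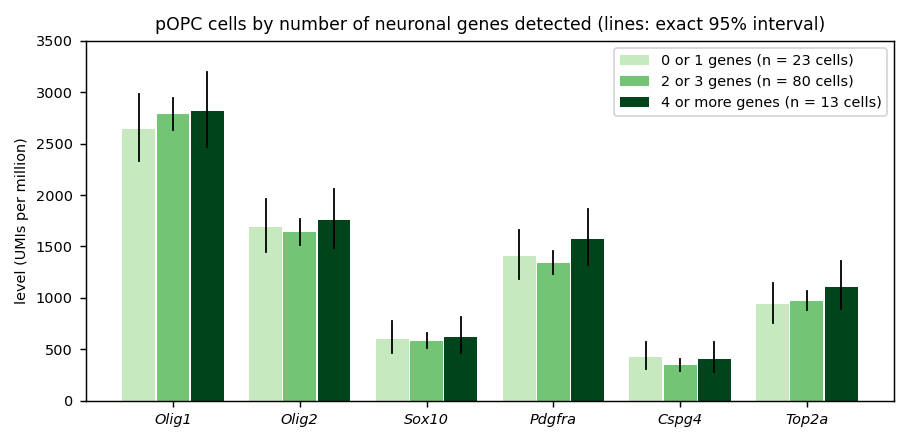
Level of 5 OPC genes and the cycling gene Top2a, in CPM, in pOPC cells with 0 or 1, 2 or 3, and 4 or more of the 10 neuronal genes after thinning. Bars are summed levels and lines exact 95% Poisson intervals, which overlap within every gene. Olig1 is at 2641, 2785 and 2817 CPM.

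Cycling was compared in the same library. The 113 pOPC cells with a UMI of Mki67 or Top2a were deeper than the 21 without, with medians of 4315 and 1177 UMIs. Gap43 was at 406 CPM in cycling cells and 169.9 CPM in the others, a ratio of 2.39 (1.14 to 6.00) on 7 UMIs in the 21 cells. With cells thinned before the split, Gap43 was found in 25 of 81 cycling cells (30.9%) and 10 of 35 others (28.6%), with intervals that overlapped. The others then include cells that lost their Mki67 or Top2a UMIs in the draw, so thinning changes more than depth. Gpm6a was at 1121 and 1068 CPM (ratio 1.05, 0.773 to 1.46) and Cntn1 at 1242 and 1286 CPM (0.966, 0.730 to 1.30), and of the other members none had an interval that left out 1. The 36 pOPC cells with Dcx, with a median of 6503 UMIs, set against the 98 without it, with 2623, had Gap43 at 469 and 334 CPM (1.405, 1.09 to 1.82) and Cntn1 at 1433 and 1110.0 CPM (1.29, 1.12 to 1.49). The cycling gene Top2a was at 1082 and 904 CPM in the same cells (1.20, 1.02 to 1.41). Thinned, Cntn1 lay the other way, in 6 of 11 cells with Dcx (54.5%, 23.4 to 83.3) and 78 of 105 without (74.3%, 64.8 to 82.3), and Gap43 was in 54.5% and 27.6%, all with overlapping intervals. Only cells that kept a UMI of Dcx in the draw count as cells with it here. Unthinned, Cspg4 was at 419.8 and 318 CPM (1.32, 1.0104 to 1.73). Olig1 was at 2489 CPM in the cells with Dcx and 2966 CPM in those without (0.839, 0.760 to 0.925). The split by Dcx was chosen after the values were seen.

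Converted cells were also split by Olig1, and no test of a difference between the libraries exists. In PC-2F, 81 cells with Olig1 (median 7063 UMIs) had Cntn1 at 149 CPM and 98 cells without it (5446 UMIs) at 27.3 CPM, a ratio of 5.45 (3.18 to 9.93). Gap43 was at 96.3 and 20.5 CPM in the same cells (4.71, 2.504 to 9.62), and Tubb3 at 66.9 and 32.4 CPM (2.07, 1.17 to 3.77). Split by Sox10, which was also delivered by the virus, PC-2F gave Gap43 at 86.9 CPM in cells with it and 16.8 CPM in cells without (5.16, 2.47 to 12.5), and Cntn1 at 113 and 52.6 CPM (2.15, 1.36 to 3.51). Thinning gives equal depth, but cells that lose their Olig1 or Sox10 UMIs move to the set without, as in every thinned split. It left 37 PC-2F cells with Olig1 and 41 with Sox10, against 81 and 100 unthinned. After thinning, these differences were not all seen. Whether depth or this move accounts for a lost difference was not tested. With PC-2F cells thinned before the split by Olig1, Cntn1 was found in 2 of 37 cells with it (5.41%) and 9 of 141 without (6.38%), Tubb3 in 2.70% and 4.96%, and Gap43 in 4 cells with it (10.8%, 3.03 to 25.4) and 2 without (1.42%, 0.172 to 5.03). By Sox10, thinned Cntn1 was in 4.88% and 6.57%, and Gap43 in 4.88% (0.596 to 16.5) and 2.92% (0.801 to 7.31), with overlapping intervals. Unthinned Tubb3 by Sox10 was at 44.2 CPM with it and 59.0 CPM without (0.749, 0.437 to 1.29). In MEF-3F the intervals for Cntn1 included 1, with 423 CPM in 89 cells with Olig1 (median 2004 UMIs) and 315 CPM in 72 cells without (1423.5 UMIs) (1.34, 0.964 to 1.89), and 414 and 358 CPM by Sox10 (1.16, 0.852 to 1.57). Thinned, Cntn1 was in 23 of 47 MEF-3F cells with Olig1 (48.9%, 34.1 to 63.9) and 22 of 75 without (29.3%, 19.4 to 40.98). Gpm6a in MEF-3F was at 30.7 CPM in cells with Olig1 on 9 UMIs and 78.7 CPM in cells without on 13 (0.390, 0.147 to 0.986). The gene was held by 7 cells on either side, and thinned it lay the other way, in 4 of 47 cells with Olig1 (8.51%) and 2 of 75 without (2.67%). Olig1 itself differed between the barcode blocks of MEF-3F, at 155 CPM in the first and 818 CPM in the second. Gpm6a was at 22.1 and 54.4 CPM in the same blocks, on 2 and 20 UMIs. The part of the blocks in the Olig1 split of MEF-3F was not tested. In MEF-2F only 4 cells held Olig1, and all 38 UMIs of Cntn1 lay in cells without it. The 16 cells with Cntn1 there included 3 of the 14 with Sox10. The Olig1 split of converted cells, and that of PC-3F by Tubb3, were chosen after the values were seen.

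In PC-3F, Tubb3 UMIs lay mostly outside cells with Sox10. Its level was 10.02 CPM in 65 cells with Sox10, on 3 UMIs, and 128 CPM in 82 cells without it, on 43 UMIs, a ratio of 0.0783 (0.0155 to 0.245). These UMIs lay in 3 cells with Sox10 and 15 without, and thinned Tubb3 was in 0 of 24 and 7 of 122 cells (5.74%), with intervals that overlapped. By Olig1 it was 38.5 CPM in 46 cells with it and 88.9 CPM in 101 without (0.432, 0.174 to 0.941). Tubb3 lay in 4 of the 46 cells and 14 of the 101, and thinned in 1 of 20 (5.0%) and 6 of 126 (4.76%). The 18 PC-3F cells with Tubb3, at a median of 4826.5 UMIs, had the NG2 gene Cspg4 at 465 CPM, against 1063 CPM in the other 129 cells at 3887 UMIs (0.438, 0.318 to 0.590), and the smooth muscle actin gene Acta2 at 109 and 29.9 CPM (3.64, 1.53 to 8.34). The matrix gene Dcn was at 188 and 567 CPM (0.332, 0.197 to 0.527). Counted by cells it lay the other way, in 6 of the 18 cells with Tubb3 and 19 of the 129 others. No cell of PC-3F held a UMI of Elavl4, Dcx, Stmn2, Stmn3, Nsg2, Gpm6a, Snap25 or Cntn1.

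**Figure D5:**
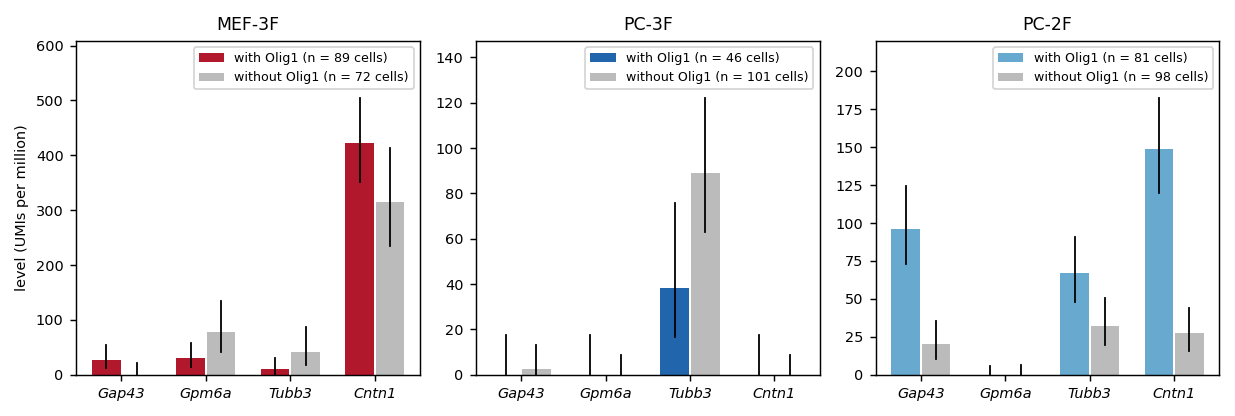
Level of Gap43, Gpm6a, Tubb3 and Cntn1, in CPM, in cells with a UMI of Olig1 (coloured, left) and without (grey, right) in MEF-3F, PC-3F and PC-2F, on separate axes. Bars are summed levels and lines exact 95% Poisson intervals. Cntn1 is at 149 and 27.3 CPM in the cells of PC-2F with and without Olig1, and at 423 and 315 CPM in those of MEF-3F, without thinning.

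A wider set of 88 neuronal genes in 7 lists, with no member among them, was read by the same call rule. Against pOPC, 2 of 43 measured genes were higher and 26 lower in MEF-3F, 3 of 42 higher and 22 lower in MEF-2F, 2 of 42 higher and 31 lower in PC-3F, and 7 of 44 higher and 30 lower in PC-2F. Over all genes tested, 19.9% were called higher and 19.5% lower in MEF-3F, 18.3% and 23.9% in MEF-2F, 19% and 21.8% in PC-3F, and 19.9% and 21.1% in PC-2F. Median log2 ratios, with libraries at 0 set at 3 UMIs, were -1.43, -1.76, -2.72 and -2.72 in that order. Against their donors most calls were upward: 17 of 26 higher and 3 lower in MEF-3F, 12 of 21 and 2 in MEF-2F, 12 of 24 and 5 in PC-3F, and 13 of 24 and 3 in PC-2F. The shares over all genes were 23.6% higher and 12.7% lower in MEF-3F, 19% and 13.8% in MEF-2F, 18.8% and 15% in PC-3F, and 17.7% and 12.8% in PC-2F. The medians against the donors were 2.48, 1.55, 0.90 and 1.20, beside 0.26, 0.01, 0.02 and 0.05 over all genes. The lists differed: adhesion genes held 7 of the higher calls in MEF-3F, 4 in MEF-2F, 6 in PC-3F and 4 in PC-2F. Of the measured transcription factors, 2 of 3 were lower than PC in PC-3F with 1 higher, and 2 of 2 were lower in PC-2F. The 1 measured RNA-binding gene was lower than PC in both.

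Most measured neuronal transcription factors, RNA-binding genes and secretion genes were below pOPC in converted cells. Of 3 measured transcription factors, 2 were lower in MEF-3F and 3 in each of MEF-2F, PC-3F and PC-2F. Pou3f2 was at 41.5 CPM in MEF-3F, 26.1 in MEF-2F, 34.6 in PC-3F, 10.004 in PC-2F, 0 in MEF, 0 in PC and 72.7 in pOPC. Of the 5 measured RNA-binding genes, 5 were lower than pOPC in MEF-3F, PC-3F and PC-2F and 3 in MEF-2F. Nova1, a splicing regulator, was at 63.3, 26.1, 6.3, 7.503, 0, 0 and 141 CPM in that order, and Elavl2, a paralog of Elavl4, had UMIs only in MEF-3F (2.18 CPM) and pOPC (69.5 CPM). Pcsk1n and Nsg1 were lower than pOPC in all 4 converted libraries, with pOPC at 72.7 and 63.2 CPM.

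Most measured cytoskeletal genes were lower than pOPC: 7 of 11 in MEF-3F with 1 higher, 6 of 10 in MEF-2F with 0 higher, 9 of 10 in PC-3F with 0 higher, and 7 of 11 in PC-2F with 2 higher. Of the synaptic genes, 3 of 7 were lower in MEF-3F and in MEF-2F, 5 of 7 in PC-3F and 6 of 8 in PC-2F, with 1 higher, in MEF-2F. Tubb2b was at 367 CPM in MEF-3F, 256 in MEF-2F, 94.4 in PC-3F, 258 in PC-2F, 122 in MEF, 27.1 in PC and 1365 in pOPC. Dpysl3 was higher in MEF, at 825 CPM, than in any converted library, with 1139 CPM in pOPC. Dpysl5 was higher in MEF-3F than in pOPC, at 41.5 and 14.2 CPM (2.92, 1.26 to 7.32), and Map1b and Tubb4a in PC-2F (2.12, 1.54 to 2.96, and 3.06, 1.17 to 10.1). Syt11 was at 493 CPM in MEF-3F and 369 in MEF-2F, against 109 in PC-3F, 83.4 in PC-2F, 127 in MEF, 12.4 in PC and 618 in pOPC. Vamp2 was higher in MEF-2F than in pOPC (3.38, 1.53 to 7.65). Of the glutamate receptor genes, Gria2 was at 13.1 CPM in MEF-3F, 0 in MEF-2F, PC-3F and PC-2F, 3.80 in MEF, 0 in PC and 438 in pOPC. Gria3 was at 118, 52.1, 124, 111, 78.5, 55.7 and 104 CPM in that order, and Grik2 was higher than pOPC in MEF-2F (4.65, 2.24 to 10.1) and PC-2F (2.23, 1.20 to 4.45).

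Of 10 measured adhesion genes, 1 was higher than pOPC and 4 lower in MEF-3F and in MEF-2F, 2 higher and 5 lower in PC-3F, and 4 higher and 5 lower in PC-2F. Over all genes, 18.3% to 19.9% were called higher than pOPC and 19.5% to 23.9% lower, so 1 or 2 of 10 higher is near that share. Gpm6b, a relative of Gpm6a and a myelin proteolipid family member, was at 1006 CPM in MEF-3F, 1282 in MEF-2F, 466 in PC-3F, 530.2 in PC-2F, 79.7 in MEF, 3.87 in PC and 1128 in pOPC. Chl1 was at 63.3, 426, 237.7, 471, 6.33, 0 and 228 CPM in the same order and was called higher than pOPC in PC-2F (2.07, 1.72 to 2.503). L1cam, which also marks Schwann cells, had 0 UMIs in pOPC and was above it by 11.05-fold or more in MEF-3F, 33.0-fold in MEF-2F, 34.9-fold in PC-3F and 26.4-fold in PC-2F. It was also above pOPC in PC, by 21.4-fold or more. Nrcam was 9.71 times as high in PC-3F (5.80 to 17.4) and 9.17 times in PC-2F (5.55 to 16.3), and Nfasc 4.35 times in PC-2F (2.76 to 7.2). The 12 Schwann and neural crest markers, of which L1cam is 1, summed to 2191 CPM in MEF-3F, 5645 in MEF-2F, 2759 in PC-3F, 1961 in PC-2F, 151 in MEF, 115 in PC and 669.98 in pOPC, where 8 of the 12, Ngfr and Foxd3 among them, were at 0. Their part in the adhesion values was not tested.

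The pattern of the members over the 7 libraries was used to rank 9856 other genes by Pearson correlation with the members' mean log2(CPM + 5), as a description of 7 points that share depth and are led by pOPC. The 6 most alike were Dmwd (0.992), Ythdf2 (0.991), Stk32a (0.9904), Pkp4 (0.985), Gng3 (0.985) and Serp2 (0.981). Ythdf2, a reader of methylated RNA, was at 89.5 CPM in MEF-3F, 86.9 in MEF-2F, 69.3 in PC-3F, 81.7 in PC-2F, 75.9 in MEF, 59.6 in PC and 229 in pOPC. Gng3, a G-protein gamma subunit of neurons, had 4.36 CPM in MEF-3F, 0 in MEF-2F and PC-3F, 0.834 in PC-2F, 2.53 in MEF, 0 in PC and 228 in pOPC. Set against the mean of the other 9, the correlation was from 0.875 to 0.959 for Elavl4, Dcx, Gap43, Stmn3, Nsg2, Gpm6a and Snap25, 0.644 for Cntn1, -0.16 for Stmn2 and -0.53 for Tubb3.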

How the data were processed

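Cells were dissociated with trypsin-EDTA and run as droplets on a ddSEQ instrument, with 3′ UMI libraries (SureCell WTA), per the labels' protocols. Tools listed in no order by the submitters' processing notes are STAR 2.5.3a, featureCounts 1.6.1 (Subread), bcl2fastq 2.19.1.403 and UMI-tools 0.5.3, with build mm10; the strand setting is not given in the sources used here. The values the authors deposited are of another kind than counts: each was read as the place of a UMI count in the text-sorted list of the counts that occur in a barcode block. No label states this, and all levels rest on it. MEF-3F, MEF-2F and PC hold 2 blocks of barcodes, each with its own list, which were decoded apart and are not replicates. Codes whose count had a probability over 0.99 held from 92.2% to 98.6% of the UMIs of a block. A gene with no row in a library was counted as 0, since every library lists genes with 1 UMI.

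Barcodes with 500 UMIs or more and under 20% mitochondrial UMIs were kept, 1124 of 1140, and library totals were from 230122 UMIs in MEF-2F to 1292603 in PC. UMIs were summed per library and given as CPM. The interval of a ratio is the exact conditional binomial one, and that of a share is Clopper-Pearson, all at 95% and for counting error only. Members at 0 are bounded with 3 UMIs per library, printed ratios are plain ratios, and the log2 ratios of single members under other settings add 0.5 UMIs. Thinning drew 1000 UMIs per cell without replacement, leaving out shallower cells, from 1 in PC-3F and PC-2F to 39 in MEF-3F. No minimum applies to the members, which are all reported. Each population is 1 library, so p-values and tests were not computed. The plan had assumed UMI counts in the files. Members, lists, splits and comparisons were chosen with earlier results of these data known. Named genes are the members, OPC genes, the 2 measured genes of each wider list highest in pOPC with up to 3 called higher than pOPC in a converted library, and the 6 genes most like the members. Some genes that this rule names are not reported here. Gene coordinates are from GENCODE for GRCm38, the assembly of mm10. Python 3.11.15, NumPy 2.4.6, SciPy 1.17.1 and Matplotlib 3.10.9 were used, and decoding was tested on simulated codes.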

Additional observations from a re-analysis of the deposited data

Results flagged for a closer look

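Cntn1 was flagged because libraries with and without Nkx6.2 differ in opposite directions in the 2 lineages. It was 2.33 times as high in MEF-3F as in MEF-2F, and at least 18.9-fold lower in PC-3F, which had 0 UMIs, than in PC-2F, which had 107. The difference between the lineages was not tested, since each side is a pair of single libraries.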

How the results depend on the processing

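Counts of members were recomputed under 12 settings. The number lower than pOPC was 6 to 8 in every converted library and donor under all of them, except 5 in MEF-2F with the second barcode block alone. With a minimum of 100 CPM, members higher than pOPC became 0 in PC-3F, PC-2F, MEF and PC, those lower than the donor 0 in MEF-3F and MEF-2F, those higher than the donor 1 in MEF-3F and 0 in PC-2F, those higher in MEF-3F than in MEF-2F 1, and those lower in PC-3F than in PC-2F 0, since few members reach that level. At 4-fold, members higher than pOPC became 0 in PC-3F, PC-2F and PC and 1 in MEF, those lower in MEF-3F than in MEF 1, and those higher in MEF-3F than in MEF-2F 1. With detections in place of UMIs the same 6 counts took the same values as at 4-fold. With equal weight per cell, members lower than MEF were 1 in MEF-3F and 2 in MEF-2F, and 1 was higher in MEF than in pOPC. With the first block alone, 0 members were lower and 1 higher in MEF-3F than in MEF, 1 was higher in MEF-3F than in MEF-2F, and 0 were higher in PC than in pOPC. With the second block alone, 0 were lower in MEF-2F than in MEF and 0 higher in MEF-3F than in MEF-2F. Scaling by a trimmed mean of log ratios shifted all log2 ratios by -0.29 to 0.40 and made 2 members lower in MEF-2F than in MEF. Otherwise the cause was not tested. Of the single ratios and shares, 783 kept their call or their lack of a call, or stayed within their interval. Of the rest, 46 calls were lost, 2 were gained, 21 shares moved and 0 turned round. Shares of pOPC cells were read under fewer settings than the ratios, and most of the checks of shares moved. The share of pOPC cells with Olig1 that held Elavl4, Dcx, Stmn3 or Nsg2 was 78.5% not thinned, 17.5% at 500 UMIs and 79.1% at 2000 UMIs. Each depth also leaves out shallower cells and redraws which cells count as holding Olig1, so the sets of cells differ. The part of each in the shares was not tested. No paired analysis was possible because each population is 1 library and no test was run.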
